A study of Mus musculus with 6 samples.

Results

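The interferon-stimulated genes described here are 47 mouse genes that are known targets of interferon signaling, namely transcription factors, nucleic acid sensors and antiviral effectors. They were listed by name from what is known of interferon, with earlier results of these data already in view, and all 47 were found among the 35275 rows of the count and FPKM tables of adult spinal cord. RNA was sequenced from whole spinal cord of 3 Sox2 cKO and 3 Ctrl mice on a C57BL/6 background. In Sox2 cKO mice (mGfap-Cre:Sox2fl/fl) the mouse Gfap promoter drives Cre recombinase, which removes the floxed Sox2 gene in cells where that promoter is active, astrocytes above all. The labels give the Ctrl genotype as mGfap-Cre:Sox2+/+, the design text allows either the Cre or the floxed allele alone, and the methods name littermates with floxed Sox2 only, so whether every control carried Cre was not settled. For both groups the labels give an age of 90 days, and the design text and the methods one of 80 days. The methods give 2 females and 1 male in each group, and sex was not used in the fits. The deposited columns carry numbers and no sample names, so libraries are called by these numbers, 2, 4 and 6 for Ctrl and 1, 3 and 5 for Sox2 cKO.

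Interferons are secreted proteins that cells release when they sense foreign nucleic acid, and they bind receptors on the same and on neighboring cells. The receptor kinases JAK1 and TYK2 phosphorylate STAT proteins, STAT2 among them, which join IRF9 to form the factor ISGF3. ISGF3 binds the interferon-stimulated response element (ISRE) in promoters and switches on genes that sense RNA, degrade it, block membrane fusion or tag proteins with ISG15. In the central nervous system, microglia, endothelium, astrocytes and neurons can all respond, and many of these genes have a low level without infection.

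The libraries held between 21507911 and 28392184 counts on genes. Sox2 had 19.9, 14.8 and 29.5 CPM (counts scaled to library size after TMM normalization) in Ctrl libraries 2, 4 and 6, and 3.16, 2.69 and 2.98 CPM in Sox2 cKO libraries 1, 3 and 5. Fold changes of Sox2 cKO over Ctrl are given as log2 values ± standard error, with 3 libraries in each group and the adjusted p of edgeR. That of Sox2 was -2.86 ± 0.24 (adjusted p = 0.000956), and no Sox2 cKO library reached a Ctrl library. Among positional markers, 5 Hox genes summed to between 240 and 306 CPM and 3 forebrain genes to between 2.75 and 4.80 CPM in the 6 libraries, as the spinal cord label states.

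Many interferon-stimulated genes were higher in Sox2 cKO spinal cord. Of the 45 that passed the filter on low counts, 20 rose and 0 fell at an adjusted p below 0.05 in edgeR's quasi-likelihood test over all genes tested. The share that rose, 44.4% of the tested members, stood against a background of 12.2% of the 16137 genes tested, and 12.4% of all genes fell. The median log2 fold change was 0.56 over the 45 members and 0.02 over all genes tested. A positive log2 fold change was found for 42 of the 45. In edgeR 27 members, all higher, had an unadjusted p below 0.05, as did 6391 of the 16137 genes tested, counting both directions. Every Sox2 cKO library lay above every Ctrl library for 27 of the 45, against 22.6% of all genes tested. Summed over the 47 members, the level was 352, 355 and 302 CPM in Ctrl libraries 2, 4 and 6 and 579, 452 and 404 CPM in Sox2 cKO libraries 1, 3 and 5, so that the groups did not overlap. In whole tissue, more cells that express a gene and more RNA of it per cell cannot be told apart. Both members that did not pass the filter, Oas3 and Mx1, are described with their families.

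**Figure D1:**
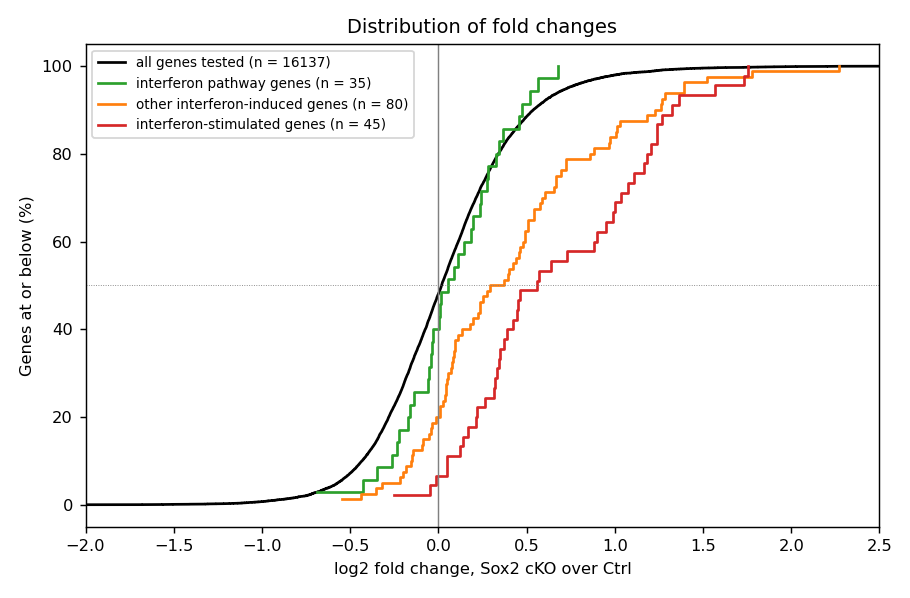
Cumulative share of genes (vertical axis, percent) at or below a given log2 fold change of Sox2 cKO over Ctrl (horizontal axis) for all genes tested, interferon pathway genes, other interferon-induced genes and the interferon-stimulated genes. The line of the interferon-stimulated genes lies to the right, with a median of 0.56, and that of the pathway genes, with a median of 0.05, follows the line of all genes.

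Many member promoters hold the letters of the sequence to which ISGF3 binds. RefSeq promoter windows of GRCm38.p6, which run from 250 bases before to 50 bases after the start site, were matched by symbol for 36 of the 47 members. The letters searched as the ISRE core were GAAA, a gap of 2 bases and GAAA again, on either strand. They were found in 20 of the 36 members (55.6%) and in 3.99% of the 27025 genes with a window. The members were listed as known targets of interferon, so this difference follows from the list and says nothing about these libraries. Of the members with a window, the core was present in 9 of 14 that rose (64.3%) and in 10 of 21 that were tested and not called (47.6%). Zbp1, Usp18, Iigp1, Ifi27, Ifi27l2a and Rtp4 rose and had no window. The 150 bases before the start site are shown for 4 members that rose and hold the core, with its letters in capitals. Neighboring matches that overlap form 1 run of capitals, as in the 3 overlapping matches of Isg15.
Isg15: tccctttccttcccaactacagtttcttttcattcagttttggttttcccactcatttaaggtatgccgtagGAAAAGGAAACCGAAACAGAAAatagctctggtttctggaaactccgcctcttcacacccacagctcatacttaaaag
Ifit1: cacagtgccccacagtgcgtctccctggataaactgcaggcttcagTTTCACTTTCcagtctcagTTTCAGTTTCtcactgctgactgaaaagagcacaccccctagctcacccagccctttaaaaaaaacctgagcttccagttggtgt
Oas1a: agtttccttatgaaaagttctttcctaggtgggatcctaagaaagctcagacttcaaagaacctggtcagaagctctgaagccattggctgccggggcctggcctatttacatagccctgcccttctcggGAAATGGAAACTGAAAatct
Bst2: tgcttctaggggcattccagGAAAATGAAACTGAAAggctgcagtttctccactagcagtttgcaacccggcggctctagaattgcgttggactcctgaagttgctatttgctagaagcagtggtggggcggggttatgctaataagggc

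These stretches lie at chr4:156200819-156200968 for Isg15, chr5:120907526-120907675 for Oas1a and chr8:71537473-71537622 for Bst2 on the minus strand, and at chr19:34640739-34640888 for Ifit1 on the plus strand. In Isg15 the 3 matches ended between 69 and 57 bases before the start site, and in Ifit1, where the core is read on the other strand, the 2 matches ended 95 and 76 bases before it. Oas1a held them nearest to the start, with ends at 11 and 5 bases. Gbp2 and Rsad2 are shown as members that hold the core and were not called, and Irf7 as a member that rose with no match in its window.
Gbp2: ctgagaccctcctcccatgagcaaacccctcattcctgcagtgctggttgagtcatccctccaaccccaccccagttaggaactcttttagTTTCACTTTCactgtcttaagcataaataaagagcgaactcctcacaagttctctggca
Rsad2: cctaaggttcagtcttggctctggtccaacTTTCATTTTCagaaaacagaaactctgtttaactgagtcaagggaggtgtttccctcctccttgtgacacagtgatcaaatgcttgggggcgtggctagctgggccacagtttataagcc
Irf7: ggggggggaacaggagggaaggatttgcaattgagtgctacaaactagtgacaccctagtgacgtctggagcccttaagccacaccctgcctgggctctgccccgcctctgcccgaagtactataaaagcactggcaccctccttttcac

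Gbp2 lies on the plus strand at chr3:142620513-142620662, and Rsad2 and Irf7 lie on the minus strand at chr12:26456453-26456602 and chr7:141266425-141266574. A match is a run of letters and not a measured binding site, and a window without it says only that these letters are absent from those 300 bases. Matches of Ifitm3, Ddx58, Eif2ak2 and Ifih1 lay within the 50 bases after the start site. Trim30a, with 2 windows, had a match before the start site in the first and after it in the other. The interferon gamma-activated site GAS, searched as TTC, a gap of 3 bases and GAA, was found in 10 of the 36 members (27.8%) and in 9.55% of all genes with a window. The SOX core letters ACAAAG on either strand were found in 7 of the 36 members (19.4%) and in 21% of all genes, with Irf7 the member among them that rose.

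**Figure D2:**
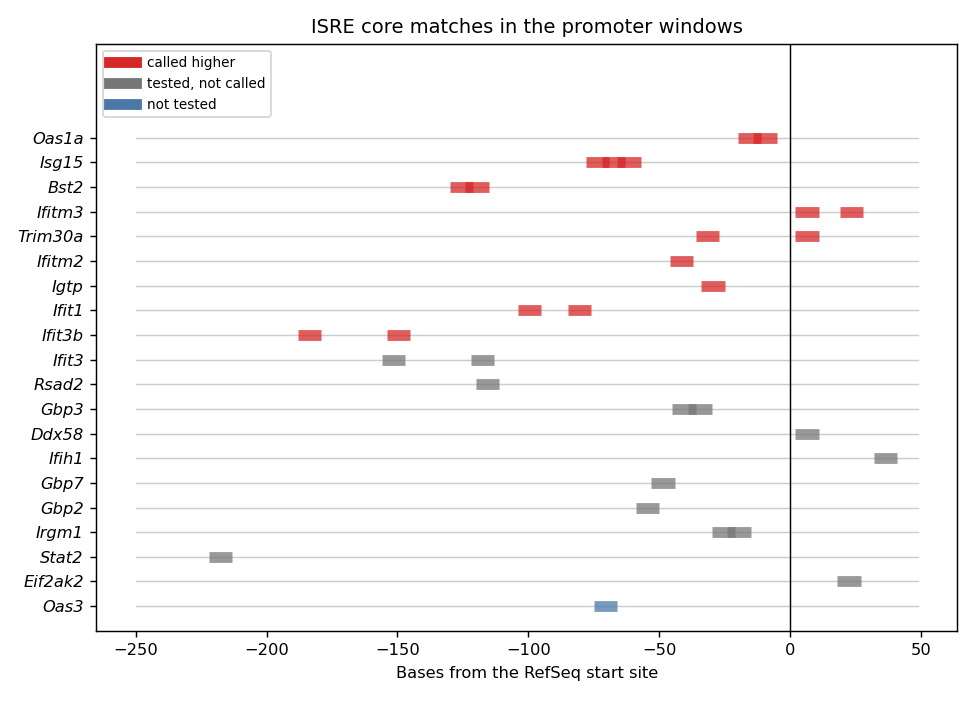
Positions of the ISRE core (horizontal axis, bases from the RefSeq start site, negative before it) in the promoter windows of the 20 members that hold it, ordered by log2 fold change from Oas1a at the top, with the untested Oas3 last. Red matches belong to the 9 members that rose, grey ones to the 10 tested and not called, and most lie before the start site in both.

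Among the transcription factors, 1 of 4 rose. Irf7, which amplifies the interferon response by inducing interferon genes, had 2.06, 1.79 and 1.83 CPM in Ctrl libraries and 7.38, 3.34 and 2.30 CPM in Sox2 cKO libraries 1, 3 and 5. The groups did not overlap, and library 1 had more than the other two together. The log2 fold change of Irf7 was 1.18 ± 0.38 (adjusted p = 0.0464). Irf9, the DNA-binding subunit of ISGF3, had 13.6, 12.3 and 11.2 CPM in Ctrl and 19.0, 13.8 and 13.7 CPM in Sox2 cKO libraries. Libraries 3 and 5 were barely above the highest control, and Irf9 did not pass the test (log2 fold change 0.32 ± 0.15, adjusted p = 0.134). Irf1, a factor induced by interferon gamma, had 4.53, 2.99 and 2.08 CPM in Ctrl and 4.96, 3.96 and 4.0 CPM in Sox2 cKO, with overlap between the groups (log2 fold change 0.42 ± 0.26, adjusted p = 0.251). Stat2, a subunit of ISGF3, had 25.4, 29.3 and 23.0 CPM in Ctrl and 28.7, 26.7 and 25.2 CPM in Sox2 cKO. The values of Stat2 overlapped throughout, with a log2 fold change of 0.05 ± 0.11 (adjusted p = 0.757).

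Of the 4 nucleic acid sensors, Zbp1 rose. Zbp1 binds nucleic acid in the left-handed Z form and can start cell death. It was scarce, with 0.314, 0.166 and 0.290 CPM in Ctrl and 0.835, 1.26 and 0.453 CPM in Sox2 cKO libraries, which is between 4 and 37 counts per library. The groups did not overlap, library 3 was highest, and the log2 fold change was 1.73 ± 0.49 (adjusted p = 0.0303). Ifih1, which encodes the long RNA sensor MDA5, had 5.07, 4.41 and 4.54 CPM in Ctrl and 6.68, 6.11 and 5.4 CPM in Sox2 cKO. Ddx58, the gene of the RNA sensor RIG-I, had 7.54, 6.82 and 6.81 CPM in Ctrl and 11.6, 8.60 and 7.63 CPM in Sox2 cKO. Both sensors were higher in every Sox2 cKO library than in every Ctrl library, yet neither passed the adjusted test, with log2 fold changes of 0.37 ± 0.15 (adjusted p = 0.0984) for Ifih1 and 0.39 ± 0.17 (adjusted p = 0.114) for Ddx58. Dhx58, whose product LGP2 modulates both sensors, had 1.48, 2.58 and 1.40 CPM in Ctrl and 3.34, 1.98 and 1.74 CPM in Sox2 cKO, which overlapped (log2 fold change 0.35 ± 0.32, adjusted p = 0.450).

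The IFIT proteins bind RNA that lacks the cap marks of the host, and their genes lie together on chromosome 19 from 34550694 to 34650009 (GRCm38). Ifit1 had 7.13, 8.98 and 5.12 CPM in Ctrl and 12.6, 12.7 and 10.1 CPM in Sox2 cKO, and Ifit3b had 8.16, 7.19 and 8.35 CPM in Ctrl and 13.0, 11.9 and 10.3 CPM in Sox2 cKO. The groups did not overlap for either gene. The log2 fold change was 0.73 ± 0.19 for Ifit1 (adjusted p = 0.0249) and 0.57 ± 0.13 for Ifit3b (adjusted p = 0.0179). Ifit3 had a similar log2 fold change, 0.56 ± 0.20, and an adjusted p = 0.0613. Ifit3 and Ifit3b are near copies, since 51.2% of the 50-base stretches of Ifit3 transcripts also occur in other genes, mostly Ifit3b, so the split of reads between them is uncertain. Ifit2 in the same cluster had 17.1, 23.5 and 20.1 CPM in Ctrl and 17.1, 17.9 and 16.0 CPM in Sox2 cKO, a log2 fold change of -0.25 ± 0.12 (adjusted p = 0.160), the lowest among the tested members.

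The OAS enzymes make short adenylate chains that activate an RNA-cutting enzyme, and Oas1a and Oasl2 rose. Oas1a had 0.718, 0.790 and 0.434 CPM in Ctrl and 2.11, 2.15 and 1.59 CPM in Sox2 cKO, a log2 fold change of 1.57 ± 0.30 (adjusted p = 0.0128). All Sox2 cKO libraries of Oas1a were well above the controls, and library 3 was highest. Because 57.6% of its 50-base stretches occur in other genes, mostly Oas1g, its level is uncertain. Oasl2, an OAS-like protein, had 5.88, 7.11 and 4.34 CPM in Ctrl and 15.5, 9.14 and 7.52 CPM in Sox2 cKO, a log2 fold change of 0.88 ± 0.27 (adjusted p = 0.0390). Library 5 of Oasl2 was close to Ctrl library 4. Oas2 had 0.942, 0.790 and 0.241 CPM in Ctrl and 2.15, 1.40 and 0.982 CPM in Sox2 cKO, without overlap, and did not pass the test (log2 fold change 1.17 ± 0.45, adjusted p = 0.0813). Oas3 did not pass the filter, with 1, 2 and 1 counts in Ctrl and 13, 13 and 8 counts in Sox2 cKO libraries. With no filter on low counts, edgeR called it higher at an adjusted p = 0.0120. The remaining genes of this role, Oasl1, the exonuclease gene Isg20 and Eif2ak2, which encodes the RNA-activated kinase PKR, overlapped between the groups and did not pass the test, with adjusted p between 0.355 and 0.950. The log2 fold change of Eif2ak2 was -0.01 ± 0.14, and its sign turned with the scaling.

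Isg15 and its protease Usp18 both rose. ISG15 is a small protein joined to others like ubiquitin, and USP18 removes it and also dampens the interferon receptor. Isg15 had 1.88, 1.66 and 1.98 CPM in Ctrl and 6.37, 4.61 and 3.29 CPM in Sox2 cKO. The controls of Isg15 lay close together and every Sox2 cKO library was well above them, with a log2 fold change of 1.36 ± 0.26 (adjusted p = 0.0127). Usp18 had 2.02, 2.0 and 1.5 CPM in Ctrl and 5.84, 2.73 and 2.61 CPM in Sox2 cKO, a log2 fold change of 1.0 ± 0.33 (adjusted p = 0.0480). Library 1 of Usp18 stood apart, and the call lay near the threshold. Trim30a, a tripartite motif protein, had 3.50, 2.45 and 2.12 CPM in Ctrl and 6.76, 5.59 and 3.78 CPM in Sox2 cKO, without overlap, and a log2 fold change of 0.99 ± 0.26 (adjusted p = 0.0233). Herc6, the main ISG15 ligase of the mouse, and Trim25, a ubiquitin ligase that acts on RIG-I, did not pass the test, with log2 fold changes of 0.31 ± 0.19 (adjusted p = 0.245) and 0.17 ± 0.14 (adjusted p = 0.411).

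The 8 GTPases comprise the IRG and GBP families, which act on the membranes around pathogens, and the dynamin-like Mx proteins, which act on virus particles inside the cell. Of these 7 were tested and 2 rose. Igtp (IRGM3) had 2.47, 2.79 and 2.51 CPM in Ctrl and 6.24, 4.64 and 3.70 CPM in Sox2 cKO, a log2 fold change of 0.90 ± 0.22 (adjusted p = 0.0189). Iigp1, an effector GTPase of the same family, had 2.15, 1.21 and 1.69 CPM in Ctrl and 5.45, 2.90 and 2.61 CPM in Sox2 cKO, a log2 fold change of 1.11 ± 0.33 (adjusted p = 0.0347). The groups did not overlap for either gene, and the 3 Sox2 cKO libraries kept the order 1, 3 and 5. The family regulator Irgm1 and the guanylate-binding protein genes Gbp2, Gbp3 and Gbp7 had log2 fold changes between 0.21 and 0.44, with adjusted p between 0.111 and 0.279. Mx2, which belongs to the dynamin-like genes, had a log2 fold change of 0.05 ± 0.21 (adjusted p = 0.885) that turned negative with the correction for gene length. Its neighbor Mx1 did not pass the filter, with 2, 3 and 2 counts in Ctrl and 22, 7 and 5 counts in Sox2 cKO libraries. Most laboratory strains of mice carry a disrupted Mx1 gene. Its counts came mostly from library 1.

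All 4 membrane restriction factors rose, without overlap between the groups. Each of them is shorter than 1000 bases, a length at which 35% of all genes tested rose. The IFITM proteins block the fusion of viruses with cell membranes, and their genes lie on chromosome 7 from 140954837 to 141010770 (GRCm38). Ifitm1 had 3.37, 3.41 and 2.12 CPM in Ctrl and 8.30, 7.81 and 6.27 CPM in Sox2 cKO, a log2 fold change of 1.32 ± 0.21 (adjusted p = 0.0124). Ifitm3 had 14.8, 9.48 and 10.1 CPM in Ctrl and 36.1, 23.9 and 19.5 CPM in Sox2 cKO, a log2 fold change of 1.21 ± 0.23 (adjusted p = 0.0128). The Sox2 cKO libraries of Ifitm1 were close to each other, whereas library 1 of Ifitm3 stood above the other two. Ifitm2 had 8.03, 6.86 and 4.01 CPM in Ctrl and 15.8, 10.4 and 10.5 CPM in Sox2 cKO, a log2 fold change of 0.95 ± 0.25 (adjusted p = 0.0236). Because 48.5% of the 50-base stretches of Ifitm2 occur in other annotated genes, mostly Gm45717, its level is uncertain. Bst2, which encodes tetherin, a protein that holds budding virus at the cell surface, had 4.62, 4.86 and 4.25 CPM in Ctrl and 15.3, 9.93 and 7.33 CPM in Sox2 cKO. Its log2 fold change was 1.24 ± 0.24 (adjusted p = 0.0130).

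The enzymes Rsad2 (viperin) and Cmpk2, which act on nucleotides and lie side by side on chromosome 12, did not pass the test. Cmpk2 had 36.2, 40.4 and 36.2 CPM in Ctrl and 34.8, 38.2 and 36.0 CPM in Sox2 cKO, and its log2 fold change was -0.05 ± 0.09 (adjusted p = 0.712). For Cmpk2 the groups overlapped closely. Rsad2 had a log2 fold change of 0.46 ± 0.43 (adjusted p = 0.452), with its highest level, 2.81 CPM, in library 1.

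The 4 genes named IFI27, IFI44 and IFI35 all rose. Ifi27 encodes a small protein of internal membranes and had the highest level per length of all members, with 36.4, 30.7 and 26.3 CPM in Ctrl and 81.3, 56.4 and 53.8 CPM in Sox2 cKO. Its log2 fold change was 1.03 ± 0.17 (adjusted p = 0.0124). Its neighbor and relative Ifi27l2a had 2.87, 2.79 and 1.69 CPM in Ctrl and 11.5, 7.27 and 6.27 CPM in Sox2 cKO, a log2 fold change of 1.76 ± 0.27 (adjusted p = 0.0124), the largest among the tested members. In both genes every Sox2 cKO library was far above the controls. Ifi35, which forms a complex with NMI, had 1.39, 1.54 and 0.917 CPM in Ctrl and 4.04, 2.87 and 2.30 CPM in Sox2 cKO, a log2 fold change of 1.24 ± 0.28 (adjusted p = 0.0168). Ifi44 had 1.03, 0.665 and 1.3 CPM in Ctrl and 3.56, 2.46 and 1.21 CPM in Sox2 cKO, a log2 fold change of 1.26 ± 0.40 (adjusted p = 0.0446). Ifi44 was the member that rose although its groups overlapped, since library 5 was below Ctrl library 6.

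Of the 5 other members, Rtp4 rose. Rtp4, a chaperone that carries receptors to the cell surface, had 2.56, 2.41 and 1.16 CPM in Ctrl and 4.70, 4.54 and 3.78 CPM in Sox2 cKO. The groups did not overlap, and the log2 fold change was 1.07 ± 0.27 (adjusted p = 0.0208). Lgals3bp, a secreted galectin-binding protein, Xaf1, which binds the apoptosis inhibitor XIAP, Samd9l and the ADP-ribosyltransferase gene Parp14 had positive log2 fold changes between 0.12 and 0.45 and did not pass the test, with adjusted p between 0.0897 and 0.584. Lgals3bp and Xaf1 did not overlap between the groups.

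**Figure D3:**
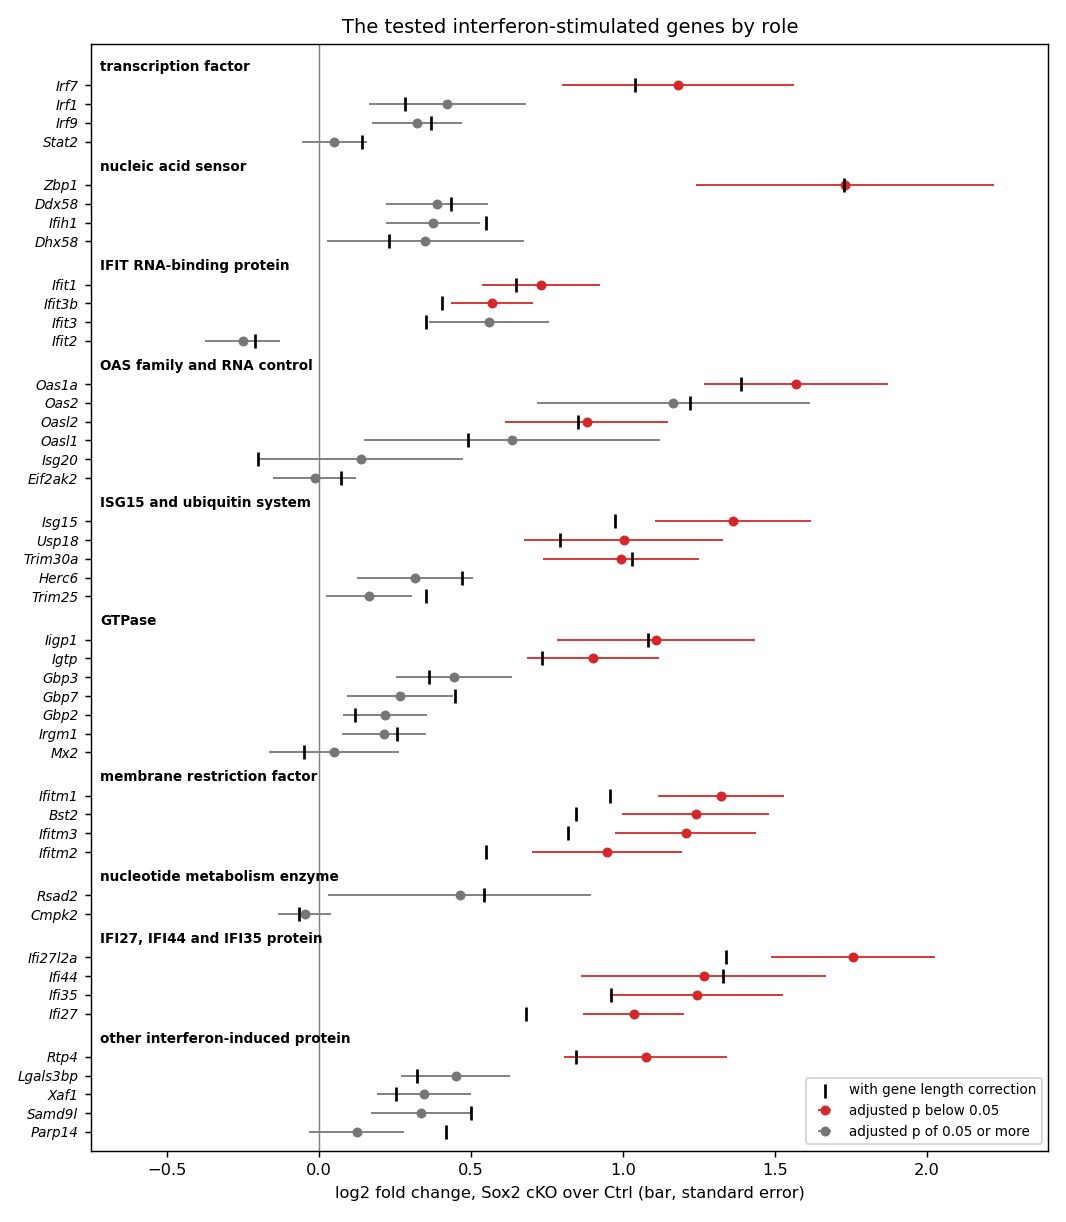
Log2 fold changes of Sox2 cKO over Ctrl (horizontal axis, points, with bars of 1 standard error) of the 45 tested members, grouped by role, with the value after the correction for gene length as a black tick. Red points mark the 20 members that rose, which include all membrane restriction factors and all genes named IFI27, IFI44 and IFI35, while Stat2, Eif2ak2, Mx2 and Cmpk2 lie near 0.

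**Figure D4:**
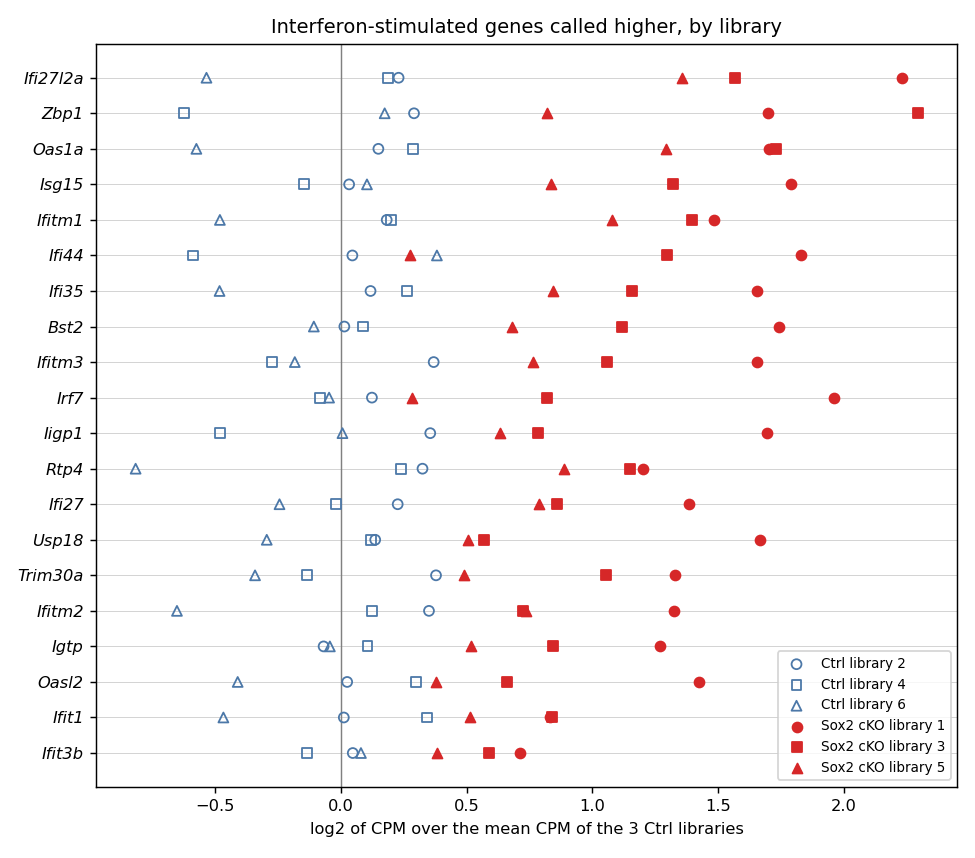
Level of each of the 20 members that rose in every library (horizontal axis, log2 of the CPM over the mean CPM of the 3 Ctrl libraries), with open blue symbols for Ctrl and filled red symbols for Sox2 cKO libraries. Library 1 (red circles) is highest for 17 of the 20 and library 5 (red triangles) is lowest of the Sox2 cKO libraries for 19, against 68.4% and 60.5% of all genes called higher.

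Levels compared between genes need the length of each gene and are given as FPKM. In Ctrl libraries the mean was highest for Ifi27 at 30.8 FPKM, then for Ifitm3 at 16.4 FPKM and Cmpk2 at 11.3 FPKM. In Sox2 cKO libraries Ifi27 and Ifitm3 had means of 67.8 and 40.6 FPKM, while Cmpk2 stayed at 11.8 FPKM. The lowest were Oas3 and Mx1, with Ctrl means of 0.0120 and 0.0295 FPKM. The members that rose thus spanned from Zbp1, at 0.0747 FPKM in Ctrl, to Ifi27.

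Some members share sequence or overlap other genes. Igtp overlaps Irgm2 and Irf9 overlaps Rnf31 on the same strand. On the opposite strand Irf7, Rtp4 and Ifi35 overlap Phrf1, Masp1 and Gm11626. Irf1, Dhx58, Oasl1 and Eif2ak2 overlap Gm17334, Dhx58os, Gm13822 and Gm26637, also on the opposite strand. Whether the counting used strand is not given in the sources used here, so reads of these pairs may not be told apart.

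Neighboring members did not move as blocks in every case. Within 200000 bases of each other lay 21 members in 8 clusters, and 9 of these members rose. The 21 include Oas3 and Mx1, which did not pass the filter and could not be called. Of the 26 members outside clusters 11 rose. All 3 Ifitm genes and both Ifi27 genes rose. In the cluster of Gbp7, Gbp3 and Gbp2 and in that of Rsad2 and Cmpk2, 0 rose. In the Ifit cluster, Ifit1 and Ifit3b rose and Ifit2 had a negative log2 fold change.

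The 3 Sox2 cKO libraries differed among themselves in a set order. Library 1 had the highest CPM of all 6 libraries for 37 of the 45 tested members (82.2%), against 27.2% of all genes tested. Library 5 was the lowest of the Sox2 cKO libraries for 39 of the 45 (86.7%), against 31.7% of all genes. All genes called higher shared this order, with library 1 highest for 68.4% and library 5 lowest of the Sox2 cKO libraries for 60.5%, where the 20 members that rose had 85.0% and 95.0%. Without Sox2 cKO library 1, edgeR called 0 members, where 0.0182% of all genes were called higher. In that fit 18 members were higher at an unadjusted p below 0.05, against a background of 15%, and the median log2 fold change of the members was 0.32. DESeq2 without library 1 called 8 members higher, with a background of 7.12%, and these were Bst2, Ifi27, Ifi27l2a, Ifit1, Ifitm1, Ifitm3, Isg15 and Rtp4. Leaving out Ctrl library 4 also left 0 members called by edgeR, where 0.0794% of all genes were called higher, and 24 members at an unadjusted p below 0.05, with a background of 14.8%. DESeq2 without Ctrl library 4 called 14 members higher, with a background of 6.51%. Without Ctrl library 6 edgeR called 9 members higher, with a background of 3.64%, and without Sox2 cKO library 3 it also called 9, with a background of 4.27%. In each of these 12 fits without a library, all 20 members that rose kept a positive log2 fold change. With all libraries DESeq2 called 21 members higher, the 20 of edgeR and Ifit3, with a background of 12.7%.

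Gene length moved with the fold changes in these libraries. The labels and the methods give different minimum RNA integrity numbers for the samples, with no value per library, and the part of RNA integrity was not tested. The 20 members that rose had a median length of 1828 bases and the 25 tested without a call one of 3832 bases, where all genes tested had 3060 bases and all genes called higher 1703 bases. Below 1000 bases, all 7 members rose, against 35% of all genes of that length. They were Ifitm1, Ifitm2, Ifitm3, Bst2, Ifi27, Ifi27l2a and Isg15. Between 1000 and 3000 bases 8 of 18 members rose, against 17.9% of all genes, and from 3000 bases 5 of 20 rose, against 4.30%. When each library was corrected for its own trend with length, 12 members were called higher and 0 lower, with a background of 6.08%, and the median log2 fold change was 0.50. The 12 were Bst2, Ifi27, Ifi27l2a, Ifi35, Ifit1, Ifitm1, Ifitm3, Igtp, Isg15, Oas1a, Trim30a and Zbp1. Those that lost the call were Ifi44, Ifit3b, Ifitm2, Iigp1, Irf7, Oasl2, Rtp4 and Usp18, with adjusted p between 0.0523 and 0.125, and all 8 kept a positive log2 fold change.

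Of 35 tested genes that produce, carry or restrain the interferon signal, 2 rose and 2 fell, against 12.2% and 12.4% of all genes, and the median log2 fold change was 0.05. The split depended on the method, with 3 higher and 5 lower in DESeq2, 4 and 2 with upper quartile scaling, 1 and 3 with DESeq2 size factors, and 4 and 1 with limma on log2(FPKM + 1). Of 21 interferon ligand genes, 17 were at 0 in all 6 libraries, Ifnb1, Ifng and most Ifna genes among them, and none of the others passed 3 counts in a library. A count of 0 allows up to 3 counts, which is between 0.102 and 0.145 CPM in these libraries. All 10 receptor and kinase genes were tested and 0 were called, with 3 higher at an unadjusted p below 0.05 in edgeR and a median log2 fold change of 0.10. Of 15 tested genes upstream of interferon production, Irf3, a factor that starts interferon transcription, rose by a log2 fold change of 0.68 ± 0.16 (adjusted p = 0.0181), and Samhd1, an enzyme that degrades deoxynucleotides, rose by 0.35 ± 0.11 (adjusted p = 0.0479). Tlr3, a sensor of RNA in endosomes, fell by 0.43 ± 0.10 (log2, adjusted p = 0.0189). Of 10 tested negative regulators, Ptpn1, a phosphatase that acts on JAK kinases, fell by 0.35 ± 0.09 (log2, adjusted p = 0.0265), and 0 rose.

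A wider list of 101 other interferon-induced genes, 95 of them in the tables and 80 tested, held 13 that rose and 2 that fell, with a median log2 fold change of 0.33. The rises, 13 of 80, were a share near the 12.2% of all genes called higher, and 12.4% of all genes fell. The 5 largest rises with a mean of at least 20 counts were those of Ifi204, Ly6a, Mndal, Gbp4 and Ddx60. Ly6a, which encodes the surface protein SCA-1, had 17.3, 11.6 and 9.95 CPM in Ctrl and 54.5, 30.8 and 26.7 CPM in Sox2 cKO, a log2 fold change of 1.52 ± 0.27 (adjusted p = 0.0125). Ifi204 and Mndal, of the family that binds DNA, had log2 fold changes of 1.78 ± 0.53 (adjusted p = 0.0356) and 1.27 ± 0.40 (adjusted p = 0.0432). Gbp4 had a log2 fold change of 1.26 ± 0.33 (adjusted p = 0.0235), although the tested Gbp genes among the 47 were not called, and Ddx60, a helicase that aids RIG-I, had 1.03 ± 0.32 (adjusted p = 0.0418). The RNA-binding genes Znfx1 and Zc3hav1 fell by 0.55 ± 0.12 (adjusted p = 0.0164) and by 0.44 ± 0.14 (adjusted p = 0.0488) in log2 units.

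Markers of several cell types that can carry interferon-stimulated RNA differed between the same libraries. Of 10 neutrophil markers 6 were tested, 5 rose and 0 were at 0 in all libraries, and their summed level was between 12.5 and 19.0 CPM in Ctrl and 70.3, 71.7 and 22.6 CPM in Sox2 cKO libraries 1, 3 and 5. S100a9, a neutrophil granule gene, had 4.44, 4.32 and 2.61 CPM in Ctrl and 25.1, 25.2 and 8.50 CPM in Sox2 cKO, a log2 fold change of 2.36 ± 0.38 (adjusted p = 0.0124). The defining neutrophil gene Ly6g had 0, 0 and 3 counts in Ctrl and 12, 3 and 3 counts in Sox2 cKO libraries. The 9 endothelial markers summed to between 216 and 240 CPM in Ctrl and to 325, 229 and 232 CPM in Sox2 cKO libraries 1, 3 and 5. Of these markers 1, Ly6c1, was called higher. Cldn5, which encodes a tight junction protein of brain endothelium, had 43.6 CPM in library 1 and between 15.6 and 19.3 CPM in the other libraries. Microglia markers summed to between 300 and 353 CPM in Ctrl and to between 253 and 322 CPM in Sox2 cKO, with 1 of 11 higher, Trem2, and 0 lower. Cx3cr1, a microglial receptor gene, was not called (log2 fold change -0.37 ± 0.13, adjusted p = 0.0528). Border macrophage markers summed to between 7.29 and 14.0 CPM in Ctrl and to 20.7, 17.1 and 13.7 CPM in Sox2 cKO libraries 1, 3 and 5, and Pf4 was called higher of 5. Pericyte and smooth muscle markers had 198 CPM in library 1 and between 151 and 169 CPM in the others, with 1 of 7 higher. Meningeal fibroblast markers had 198 CPM in Ctrl library 6 and between 422 and 556 CPM in the others. T and NK cell markers summed to between 0.807 and 1.88 CPM and B cell markers to between 0.386 and 1.66 CPM in the 6 libraries. Astrocyte markers summed to between 8449 and 10250 CPM in Ctrl and to between 6505 and 6737 CPM in Sox2 cKO, with 5 of 10 lower and 1 higher. S100b, a calcium-binding protein gene of astrocytes, was the one that rose (log2 fold change 0.71 ± 0.18, adjusted p = 0.0229), and Gfap was among those that fell (log2 fold change -1.11 ± 0.15, adjusted p = 0.0103). The part of these cell types in the levels of the interferon-stimulated genes was not tested.

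**Figure D5:**
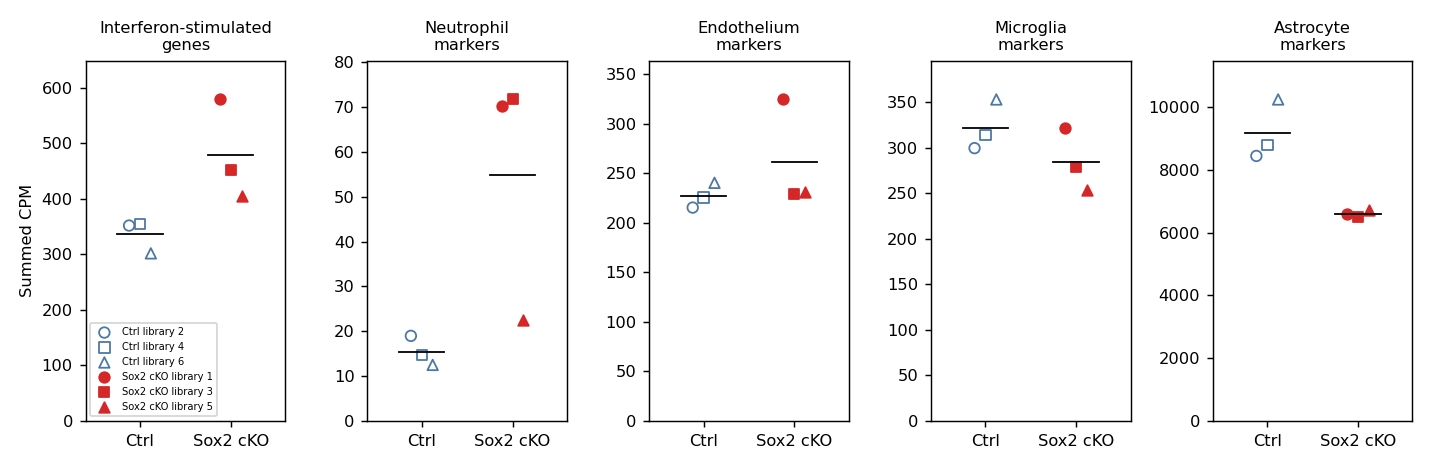
Summed CPM (vertical axes, each from 0) of the interferon-stimulated genes and of the neutrophil, endothelium, microglia and astrocyte markers in each library, with a line at the mean of each group. Library 1 (red circle) is highest for the interferon-stimulated genes at 579 CPM and for the endothelium markers at 325 CPM, and library 3 (red square) is highest for the neutrophil markers at 71.7 CPM.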

How the data were processed

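Poly(A) RNA of 6 whole spinal cords (3 of each genotype) was sequenced with a directional kit. The authors aligned the reads to mm10 with STAR 2.5, counted reads per gene with HTSeq 0.6.1 and deposited the counts without normalization. FPKM values, which divide each count by library size and gene length, were likewise deposited. Columns were put in groups by the last digit of their names, which matches the mouse numbers on a protein blot of the study, and the group means matched those of the supplementary table for 1999 of 1999 genes within a relative tolerance of 0.0001 (0 of 1999 with the groups swapped). Replicate numbers cannot be assigned to columns.

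The members, the gene lists and the tests were chosen with earlier results of these data known. Gene positions came from GENCODE M21 (GRCm38), which matched 34490 of 35275 identifiers. Under R 4.3.3, edgeR 4.0.16 was applied to the counts (filterByExpr, TMM, quasi-likelihood test, no covariate, Benjamini-Hochberg over all genes at 0.05), and each standard error was computed from a fold change and its test statistic. The biological coefficient of variation was 0.119. In simulated counts the test recovered 96% of genes changed by a known fold over 16171 genes, with 2.04% false calls. The changed genes had a mean of at least 20 counts, and all genes shared the same dispersion. The simulation held no trend with gene length and no library that stood apart, so these rates do not describe the calls in the real libraries. Nothing in the labels ties libraries to batches. An exact permutation test of 3 against 3 cannot give p below 0.1. Floors and depth cover counting error only.

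Alternatives were DESeq2 1.42.0, upper quartile and DESeq2 scaling, other filters on low counts, limma 3.58.1 on log2 FPKM with pseudocounts of 1 and 0.1 (mean FPKM of at least 0.5, or no filter), a lowess correction for gene length (span 0.3) and leaving out each library. DESeq2 without each library and the length classes were added after seeing the data. Values per library are given for members with a call and a mean of at least 20 counts and for each transcription factor and sensor, and others are given by range. Promoters came from the RefSeq table of GRCm38.p6.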

Additional observations from a re-analysis of the deposited data

How the results depend on the processing

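The number of interferon-stimulated genes called, 20 of 45 tested, was between 14 and 23 under DESeq2, both other scalings, both filtered limma fits on log2 FPKM, no filter and at least 10 counts in every library. Over all genes, those fits called between 1878 and 2670 higher, of 14756 to 24442 tested. The number of members called was 12 with the correction for gene length, where 981 of 16137 genes were called higher. It was 0 with limma on log2(FPKM + 1) without a filter, where 7 genes in all were called. In that limma fit 25 of 47 members had an unadjusted p below 0.05, as did 6765 of all 24442 genes. In fits that each left out a library, the number of members called ranged from 0 to 23 with edgeR and from 8 to 25 with DESeq2. Without Ctrl library 2, edgeR called 20 members higher and 1 lower, where 3030 of 16590 genes were called higher and 3089 lower. DESeq2 without Ctrl library 2 called 24 members higher and 1 lower, where 2620 of 15528 genes were called higher and 3004 lower. The median log2 fold change of the members, 0.56, was 0.32 with unfiltered limma, between 0.44 and 0.61 under the other alternatives with all libraries, and without a library between 0.32 and 0.71 with edgeR and between 0.42 and 0.72 with DESeq2. The number of pathway genes called, 4, was 8 with DESeq2, 0 with unfiltered limma, and without a library from 0 to 12 with edgeR and from 1 to 11 with DESeq2. Of the other interferon-induced genes 15 were called, against 24 with no filter, 7 with the length correction, 0 with unfiltered limma, and without a library from 0 to 21 with edgeR and from 5 to 20 with DESeq2, where 4 of the 6 fits gave 5 or 6. Over all genes 3970 were called, 1962 of them higher, against 2109 with the length correction, 7 with unfiltered limma, and without a library from 8 to 6119 with edgeR and from 1981 to 5624 with DESeq2, where it was 2290 without Ctrl library 6 and 2342 without Sox2 cKO library 1. Limma called 2670 of 3585 higher on log2(FPKM + 1) and 2614 of 3510 on log2(FPKM + 0.1). Sox2 had a log2 fold change of -2.11 and an adjusted p = 0.0567 with unfiltered limma.

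Members near 0 changed sign. Eif2ak2 had a log2 fold change of 0.034 with upper quartile scaling, 0.074 with limma on log2(FPKM + 1) with and without the filter, 0.093 with the smaller pseudocount and 0.073 with the length correction. Without a library it had between -0.12 and 0.12 with edgeR, and with DESeq2 0.11 without Ctrl library 4, 0.0037 without Sox2 cKO library 3 and 0.020 without library 5. With the length correction Isg20 had -0.20 and Mx2 -0.050. With edgeR without a library, Stat2 had between -0.027 and 0.15, Isg20 between -0.043 and 0.39, Mx2 between -0.075 and 0.24, Rsad2 between -0.074 and 0.89, and Cmpk2 between -0.085 and 0.0066. With DESeq2, Stat2 had -0.043 without Ctrl library 6 and -0.0099 without Sox2 cKO library 1, Isg20 -0.052 without Ctrl library 2, and Mx2 -0.0053 without Ctrl library 4 and -0.091 without Ctrl library 6. Cmpk2 had 0.048 with limma on log2(FPKM + 1) and 0.052 with the smaller pseudocount. The causes were not tested. The 20 members that rose kept their direction wherever they were tested, and 279 of their 400 values under the alternatives kept an adjusted p below 0.05. No paired analysis was possible because nothing in the labels or the deposited columns links a Sox2 cKO library to a Ctrl library. With 3 libraries in each group, and members such as Zbp1, Oas3 and Mx1 at few counts, small differences were not detectable at this depth.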

Other observations

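Genes of the Ly6 family, small surface proteins encoded on chromosome 15, were looked at after the rise of Ly6a had been seen. Ly6e, an interferon-induced member of the family, had 60.0, 46.3 and 44.2 CPM in Ctrl libraries 2, 4 and 6 and 98.2, 78 and 72.3 CPM in Sox2 cKO libraries 1, 3 and 5, a log2 fold change of 0.72 ± 0.14 (adjusted p = 0.0128, edgeR). Ly6c1, which marks endothelium in the brain, had 31.8, 19.9 and 21.6 CPM in Ctrl and 64.7, 47.5 and 44.3 CPM in Sox2 cKO, a log2 fold change of 1.09 ± 0.19 (adjusted p = 0.0125, edgeR). Ly6h, a neuronal member, had a log2 fold change of 0.73 ± 0.14 (adjusted p = 0.0127, edgeR), whereas Lynx1, which acts on nicotinic receptors, fell by 0.75 ± 0.17 (log2, adjusted p = 0.0177, edgeR). Lypd2 also rose (log2 fold change 1.09 ± 0.33, adjusted p = 0.0364, edgeR) and had an adjusted p = 0.175 with the correction for gene length, where the other 4 genes and Ly6a stayed below 0.05. In edgeR without Sox2 cKO library 1 or without Ctrl library 4 none of the 6 passed, with adjusted p between 0.0631 and 0.139 and between 0.0650 and 0.0780. Their relation to interferon was not tested.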
